A study of Homo sapiens with 4 samples.

Results

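The 72 histone genes described here comprise 61 replication-dependent genes and 11 genes of histone variants, out of 18132 genes read by the arrays. The rule that picks them reads gene symbols and no measured value: it takes the genes whose current symbols name an H1, H2A, H2B, H3 or H4 histone, H2A.X, H2A.Z, H2A.J, H3.3 or macroH2A. The replication-dependent genes were 6 of the linker histone H1, 15 of H2A, 18 of H2B, 10 of H3 and 12 of H4. Of these 61 genes, 54 lie on chromosome 6, 6 on chromosome 1 and 1 on chromosome 12. RNA came from U87MG, an established human glioblastoma cell line, kept at 0.2% oxygen and profiled on 4 human PrimeView arrays. One group, with 2 arrays, was transfected with the PCMV control vector and the other, also with 2 arrays, with a NeuroD2 expression vector. RNA was harvested 48 hours after transfection, and both groups shared the low oxygen and the transfection itself. NeuroD2 is a basic helix-loop-helix transcription factor of neuronal differentiation, and the design asks which transcripts differ when it is overexpressed in hypoxic glioblastoma cells. The transfection was transient, the fraction of cells that took up a vector is not given in the sources used here, and all arrays come from the same line. The labels call the 2 arrays of a group biological replicates without saying whether they came from separate cultures, so p-values cover the spread between these arrays, which may be technical.

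Histones package DNA: H2A, H2B, H3 and H4 form the core of the nucleosome, around which DNA winds, and H1 binds the DNA that enters and leaves it. Replication-dependent histone genes lie in clusters, lack introns and are transcribed mainly in S phase, when newly copied DNA needs new nucleosomes. Most of their mRNAs end in a conserved stem-loop rather than a poly(A) tail, and the stem-loop binding protein SLBP governs their processing and stability. Variant histone genes lie outside the clusters, mostly carry introns and poly(A) tails, and are expressed throughout the cell cycle. The labelling kit named in the labels copies RNA from poly(A) tails. How much of the stem-loop transcripts these probe sets read was not tested.

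Many H2A and H2B genes share a short promoter region from which they are transcribed in opposite directions. That region often holds the octamer element, ATTTGCAT on either strand, which binds the POU factor Oct-1, and CCAAT boxes, which bind NF-Y. The windows shown are those of the 4 replication-dependent genes that rose and of 1 variant gene that fell, with the octamer and each CCAAT box, on either strand, in capitals. Each is the 250 bases before a RefSeq start site in GRCh38.p14, printed 5′ to 3′ on the strand of the gene. H2AC11 lies on the plus strand with its window at chr6:27132793-27133042, and H2AC8, also on the plus strand, has its window at chr6:26216671-26216920. H2AC7 and an upstream start of H3C4 share the minus-strand window chr6:26199294-26199543. H2BC18 has the minus-strand window chr1:149812371-149812620. The variant gene H2AZ2 has the minus-strand window chr7:44848088-44848337 and is printed for contrast.
H2AC11: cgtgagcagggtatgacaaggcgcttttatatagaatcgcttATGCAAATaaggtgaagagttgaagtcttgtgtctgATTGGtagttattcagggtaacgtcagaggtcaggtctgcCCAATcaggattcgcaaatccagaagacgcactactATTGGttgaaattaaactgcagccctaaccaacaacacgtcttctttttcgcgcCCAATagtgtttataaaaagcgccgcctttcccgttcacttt
H2AC8: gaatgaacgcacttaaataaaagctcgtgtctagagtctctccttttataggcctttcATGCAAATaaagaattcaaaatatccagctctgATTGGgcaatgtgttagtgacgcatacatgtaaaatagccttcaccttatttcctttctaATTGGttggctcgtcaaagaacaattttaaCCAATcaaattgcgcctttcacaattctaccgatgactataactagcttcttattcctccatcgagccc
H2AC7 and H3C4: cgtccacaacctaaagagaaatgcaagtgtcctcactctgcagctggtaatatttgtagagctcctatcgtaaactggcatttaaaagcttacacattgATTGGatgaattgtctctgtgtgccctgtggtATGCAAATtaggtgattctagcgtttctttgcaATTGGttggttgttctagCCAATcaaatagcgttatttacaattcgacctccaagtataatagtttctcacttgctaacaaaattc
H2BC18: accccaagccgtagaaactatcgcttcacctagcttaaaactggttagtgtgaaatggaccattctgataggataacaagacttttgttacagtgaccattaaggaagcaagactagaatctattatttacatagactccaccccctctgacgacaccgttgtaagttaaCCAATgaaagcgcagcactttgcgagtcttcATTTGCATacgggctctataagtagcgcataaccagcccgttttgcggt
H2AZ2: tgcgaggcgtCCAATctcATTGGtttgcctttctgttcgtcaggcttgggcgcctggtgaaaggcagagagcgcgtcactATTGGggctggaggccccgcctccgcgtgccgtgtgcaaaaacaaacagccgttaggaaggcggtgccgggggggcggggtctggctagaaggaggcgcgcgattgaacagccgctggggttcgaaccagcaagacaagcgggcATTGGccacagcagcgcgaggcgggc
The 3 windows of chromosome 6 and that of H2BC18 each hold 1 octamer. The window of H2AC11 holds 4 CCAAT boxes, those of H2AC8 and of H2AC7 and H3C4 hold 3 each, and that of H2BC18 holds 1. The window of H2AZ2 holds 4 CCAAT boxes and no octamer, and its GC content was 64.4% against 44.0% for H2AC11 and 38.0% for H2AC8. At its second start H3C4 has a window with 2 CCAAT boxes and no octamer, and the 2 windows of the variant gene MACROH2A1 hold no octamer either. These matches describe letters in the sequence and are not measurements of binding.

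NEUROD2 measured 5.46 and 5.35 on control arrays 1 and 2 and 7.37 and 7.82 on NeuroD2 arrays 1 and 2 (log2), a difference of 2.19 with a 95% interval of 1.82 to 2.57 (limma, adjusted p = 0.00441). Of 8 markers of the glioma line, 5 lay at or above the median level of all genes, among them VIM at 14.12 to 14.18 and CD44 at 12.74 to 12.92, while GFAP lay between 6.07 and 6.35. The matrix gene TNC rose (0.45, adjusted p = 0.0378) and the glycoprotein gene CHI3L1, at 4.80 to 5.43, fell (-0.51, adjusted p = 0.0383). The other 6 did not pass, with differences from -0.30 for SPARC and -0.25 for NES to 0.18 for S100B and 0.24 for GFAP. Of 10 markers of blood, endothelial, epithelial, neuronal and other brain cells, 1 lay at or above the median level of all genes, the synaptic gene SNAP25, at 8.50 and 8.66 in the controls and 7.93 and 8.06 with NeuroD2. SNAP25 fell (-0.59, adjusted p = 0.0312), and the other 9 did not pass. Control RNAs spiked into the samples differed between arrays. The 18 hybridisation spike probe sets averaged 9.56 and 9.90 on the control arrays and 10.10 and 10.13 on the NeuroD2 arrays, a difference of 0.39 (0.22 without control array 1, 0.56 without control array 2). The 24 poly-A spike probe sets averaged 6.95 on control array 1 and between 7.96 and 8.03 on the rest. Probe sets for background with 21 to 25 G or C bases averaged 8.23 and 7.88 on the control arrays and 8.39 and 8.24 on the NeuroD2 arrays, a difference of 0.26, while those with 3 to 12 differed by 0.03.

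With the NeuroD2 vector, 4 replication-dependent histone genes rose and 2 variant histone genes fell. The rises were in H2AC11 and H2AC8, which encode core histone H2A, H2BC18, which encodes H2B, and H3C4, which encodes H3. The falls were in H2AZ2, which encodes H2A.Z, a variant found around gene starts, and MACROH2A1, which encodes macroH2A1, a large variant of repressed chromatin. All values are log2 intensities, differences are NeuroD2 minus control, and a gene passed at an adjusted p below 0.05 by limma over all 18132 genes. At that threshold 1.81% of all genes were higher and 2.96% lower, against 4 and 2 of the 72 histone genes. Neither NeuroD2 array overlapped the control arrays in 32 histone genes that were higher and 11 that were lower, where 24.2% and 26.6% of all genes did the same. In bulk RNA, fewer cells of a kind, such as cells in S phase, and less RNA per cell cannot be told apart.

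The medians of the 2 classes differed in sign, while the genes within each lay on both sides of 0. The 61 replication-dependent genes had a median difference of 0.13, with 46 above 0 and 15 below. In 31 of them both NeuroD2 arrays lay above both controls, with 5 the other way, beside 24.2% and 26.6% of all genes. The 33 H2A and H2B genes had a median of 0.22 and 3 passed, all higher. The 28 H1, H3 and H4 genes had a median of 0.07 and 1 passed, also higher. The 12 H4 genes among them had a median of -0.02, with 5 above 0 and 7 below. The 11 variants had a median of -0.08, with 5 above 0 and 6 below, and 2 passed, both lower. The median over all 18132 genes was 0.00. Median levels of the replication-dependent genes overlapped, at 4.70 and 4.83 on the control arrays and 4.89 and 4.82 on the NeuroD2 arrays. Those of the variants were 10.64 and 10.44 against 10.09 and 10.10. The SD of these median levels within a group of arrays was 0.076 for replication-dependent genes and 0.103 for variants. The 2 classes also differ in level: 6 of the 11 variants but 15 of the 61 replication-dependent genes lay at or above the median level of all genes. Within the upper level range, the replication-dependent median was 0.22 over 15 genes and the variant median -0.30 over 6, where all genes of that range had a median of -0.03. Within the lower range the medians were 0.12 over 46 genes and 0.10 over 5, and 0.02 over all genes, so medians of opposite sign were seen in the upper range only. The 5 dim variants include H3-3A, read on a probe set at 2.84 to 3.08. On 3 brighter probe sets that also match a pseudogene H3-3A differed by -0.22, -0.15 and -0.18. The 54 replication-dependent genes of chromosome 6 had a median of 0.13 and the 6 of chromosome 1 a median of 0.18.

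The calls rested on all 4 arrays. Leaving out control array 1, control array 2, NeuroD2 array 1 or NeuroD2 array 2 left 0 histone genes past the adjusted threshold in limma each time, and over all genes the same omissions left 0, 0, 57 and 66 calls. At an unadjusted p below 0.05, 19 of the 72 histone genes were higher and 6 lower on all 4 arrays, where 9.27% of all genes were higher and 12.5% lower. Without a control array the histone counts were 15 or 16 higher and 4 or 6 lower, where 9.21% to 11.7% of all genes were higher and 12.7% to 13.4% lower. Without a NeuroD2 array they were 13 higher and 4 or 5 lower, where 4.90% to 5.06% of all genes were higher and 6.89% to 7.32% lower. The median of the replication-dependent genes lay between 0.12 and 0.15 in these omissions. That of the variants lay between -0.16, without NeuroD2 array 1, and -0.06, without control array 1. It was -0.15 when probe sets were averaged and 0.00 over the 8 variants left without probe sets of the suffix s_at or x_at. The hybridisation spikes read 0.39 higher on the same NeuroD2 arrays, and their part in the histone differences was not tested.

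**Figure D1:**
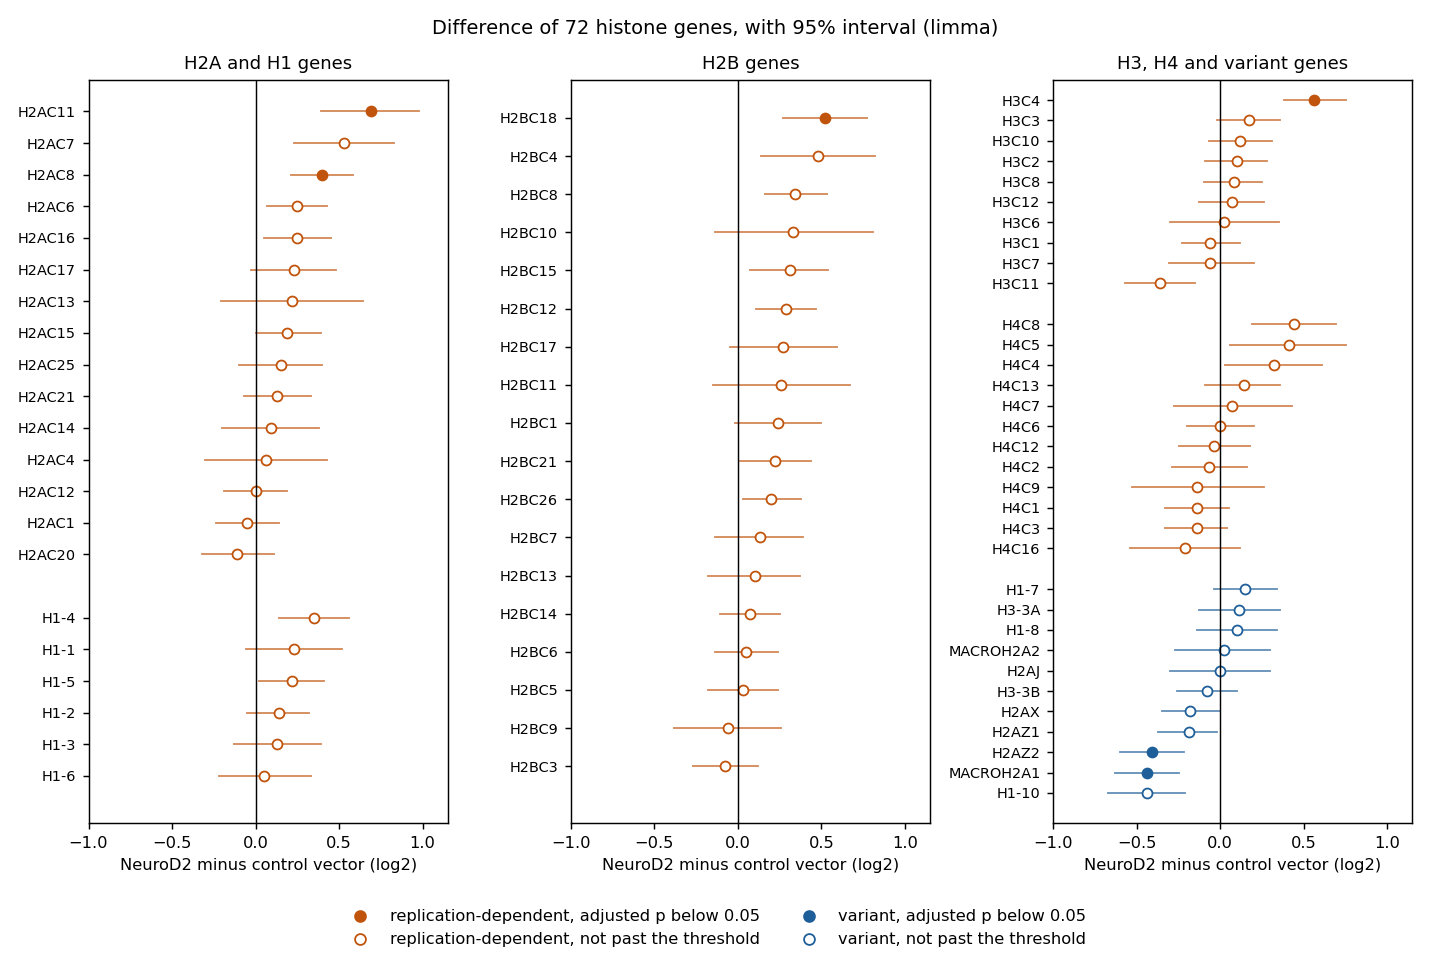
Difference of each of the 72 histone genes between NeuroD2 and control arrays (log2, x axis) with its 95% interval from limma, 2 arrays per group. Most H2A and H2B genes lie to the right of 0, filled circles mark the 4 rises and 2 falls past the adjusted threshold, and the variants H2AZ2, MACROH2A1 and H1-10 lie furthest to the left.

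Among the 15 H2A genes 2 rose, 0 fell and 13 did not pass, where 1.81% of all genes rose and 2.96% fell. They had a median difference of 0.19 and a range of -0.11 to 0.69. H2AC11 measured 5.45 and 5.77 on the control arrays and 6.32 and 6.27 on the NeuroD2 arrays. The groups did not overlap, and the control arrays lay further apart than the NeuroD2 arrays. The difference was 0.69 (95% interval 0.39 to 0.98, 1.61-fold, adjusted p = 0.0392), and it was 0.52 without control array 1 and 0.85 without control array 2. H2AC8 measured 7.19 and 7.14 in the controls and 7.59 and 7.53 with NeuroD2. The SD within each group was 0.04, and the difference was 0.40 (0.21 to 0.58, 1.32-fold, adjusted p = 0.0449). H2AC7 measured 3.64 and 3.87 against 4.16 and 4.41, a difference of 0.53 that did not pass (adjusted p = 0.0701). H2AC6 measured 8.80 on both control arrays and 9.08 and 9.01 with NeuroD2, a difference of 0.25 (adjusted p = 0.125). All of these encode H2A proteins of the nucleosome core, and their transcripts are so alike that a probe set may read more than 1 of them. In 1 H2A gene, H2AC20, both NeuroD2 arrays lay below both controls (8.69 and 8.52 against 8.50 and 8.50), where its difference of -0.11 did not pass (adjusted p = 0.555).

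H2B partners H2A in a dimer that is added to the nucleosome as a unit. Among the 18 H2B genes 1 rose, 0 fell and 17 did not pass, where 1.81% of all genes rose and 2.96% fell. They had a median of 0.23 and a range of -0.08 to 0.52. H2BC18, on chromosome 1, measured 5.59 and 5.69 in the controls and 6.28 and 6.05 with NeuroD2. Both NeuroD2 arrays were higher, and the difference was 0.52 (0.27 to 0.77, 1.44-fold, adjusted p = 0.0498). It lay at the edge of the threshold: with a robust prior the adjusted p was 0.0549, and averaged over its 4 probe sets the difference was 0.27 (adjusted p = 0.0746). H2BC4 measured 5.89 and 6.29 against 6.54 and 6.61, a difference of 0.48 that did not pass (adjusted p = 0.116) and was 0.28 without control array 1. H2BC8 measured 6.52 on both control arrays and 6.91 and 6.81 with NeuroD2, a difference of 0.34 (adjusted p = 0.0657). H2BC12 measured 12.02 and 12.05 against 12.34 and 12.31, a difference of 0.29 (adjusted p = 0.083) against an SD of 0.02 within each group. H2BC10 had a difference of 0.33 but its arrays overlapped, at 4.22 and 4.62 against 4.53 and 4.99, and omitting 1 array gave values from 0.10 without NeuroD2 array 2 to 0.56 without NeuroD2 array 1. Both NeuroD2 arrays lay above both controls in 10 of the 18 H2B genes, and in 0 of them did both lie below. Over all genes 24.2% lay above and 26.6% below in this way.

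H3 and H4 form the tetramer at the centre of the nucleosome. H3C4 was the gene that rose among the 10 H3 genes. No H3 gene fell, 9 did not pass, and the median was 0.07. Over all genes 1.81% rose and 2.96% fell. H3C4 measured 7.26 and 7.35 on the control arrays and 7.85 and 7.88 on the NeuroD2 arrays. The gap between the groups exceeded the spread within each, and the difference was 0.56 (0.38 to 0.75, 1.48-fold, adjusted p = 0.0216). H3C11 went the other way, at 4.57 and 4.72 against 4.26 and 4.31, a difference of -0.36 that did not pass (adjusted p = 0.0719). H3C3 (0.17, adjusted p = 0.274) and H3C10 (0.12, adjusted p = 0.422) were the next in size, and the other 6 H3 genes lay between -0.06 and 0.10.

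None of the 12 H4 genes passed by limma, and 3 were higher and 0 lower at an unadjusted p below 0.05, where 9.27% and 12.5% of all genes were. Their median was -0.02 and the range -0.21 to 0.44. H4C8 measured 6.15 and 6.02 in the controls and 6.63 and 6.42 with NeuroD2, a difference of 0.44 (adjusted p = 0.0715). H4C5 measured 4.78 and 5.15 against 5.46 and 5.28, a difference of 0.41 (adjusted p = 0.175) that was 0.22 without control array 1. Its second probe set differed by -0.02, so the sign was not shared within the gene. H4C4 had a difference of 0.32 (adjusted p = 0.191), and 0.20 without NeuroD2 array 1. H4C16, on chromosome 12, had one of -0.21 (adjusted p = 0.44), which ran from -0.36 without NeuroD2 array 2 to -0.05 without NeuroD2 array 1. H4C3 measured 12.98 and 13.06 against 12.90 and 12.86, a difference of -0.14 (adjusted p = 0.343).

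None of the 6 H1 genes of the cluster passed by limma either, and 2 were higher and 0 lower at an unadjusted p below 0.05, beside the same 9.27% and 12.5% of all genes. All 6 differences lay above 0, with a median of 0.18. H1-4 measured 5.14 and 4.98 in the controls and 5.40 and 5.41 with NeuroD2, a difference of 0.35 (adjusted p = 0.0841). The differences of H1-1 (0.23), H1-5 (0.22) and H1-2 (0.14) were smaller, with adjusted p-values from 0.186 to 0.353. In each of them both NeuroD2 arrays lay above both controls, as in 24.2% of all genes. H1-1 differed by 0.39 without control array 1 and by 0.08 without control array 2.

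**Figure D2:**
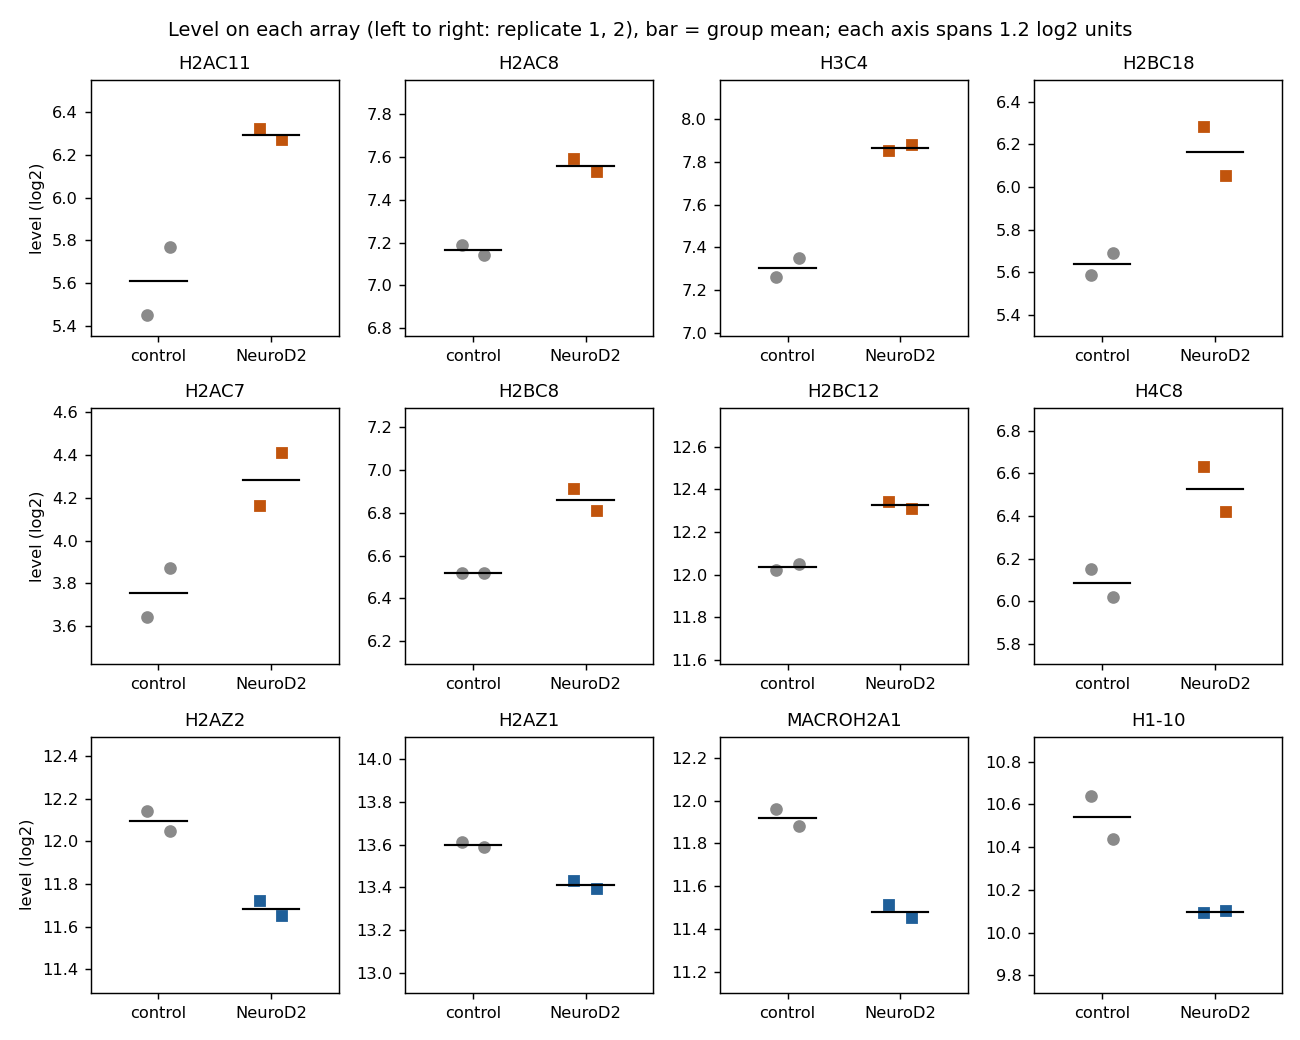
Level of 12 histone genes on each of the 4 arrays (log2, y axis, every panel spanning 1.2 units), circles for control arrays, squares for NeuroD2 arrays and bars for group means. H2AC11, H2AC8, H3C4 and H2BC18 rose and H2AZ2 and MACROH2A1 fell past the adjusted threshold, and in the other 6 panels the groups do not overlap either. Of all genes 24.2% were higher and 26.6% lower without overlap.

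Variants replace core histones outside S phase. Among the 11 variant genes 0 rose, 2 fell and 9 did not pass, where 1.81% of all genes rose and 2.96% fell. MACROH2A1 measured 11.96 and 11.88 on the control arrays and 11.51 and 11.45 on the NeuroD2 arrays, a difference of -0.44 (-0.63 to -0.25, 1.35-fold lower, adjusted p = 0.0397). H2AZ2 measured 12.14 and 12.05 against 11.72 and 11.65, a difference of -0.41 (-0.60 to -0.22, 1.33-fold lower, adjusted p = 0.0463). In both genes the SD within each group was at most 0.06 and the groups did not overlap. H2AZ1, the other H2A.Z gene, measured 13.61 and 13.59 against 13.43 and 13.39, a difference of -0.19 that did not pass (adjusted p = 0.198). H2AX, whose product is phosphorylated at DNA breaks, measured 10.91 and 10.92 against 10.72 and 10.75, a difference of -0.18 (adjusted p = 0.225). The linker variant H1-10 measured 10.64 and 10.44 against 10.09 and 10.10, a difference of -0.44 that did not pass (adjusted p = 0.058). Its second probe set, at 5.83 to 5.86 on all arrays, differed by -0.02. H3-3B, one of the genes of H3.3, differed by -0.08 (adjusted p = 0.588).

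The other 5 variants lay below the median level of all genes, and none of them passed by limma, nor did any reach an unadjusted p of 0.05. Their differences were 0.15 for the testis linker histone gene H1-7, 0.11 for H3-3A, 0.10 for the oocyte linker histone gene H1-8, 0.02 for MACROH2A2 and 0.00 for H2AJ. The groups overlapped in 4 of them, H1-7 being the exception. The signs of H3-3A, MACROH2A2 and H2AJ turned when 1 array was left out, and H1-8 was 0.00 without control array 2. H3-3A was read here on a probe set at 2.84 to 3.08. On 3 brighter probe sets that also match the H3P6 pseudogene, its levels ran from 12.31 to 13.07 and the differences were -0.22, -0.15 and -0.18. Both NeuroD2 arrays lay below both controls on each, as in 26.6% of all genes.

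Because histone genes are near copies of each other, their probe sets were also fitted one by one among all 49395 probe sets. Of the 131 histone probe sets with 1 gene symbol, 82 lay above 0 and 49 below, 1 passed in the higher direction and 0 in the lower, by limma. In that fit 1.24% of all probe sets passed higher and 1.58% lower. The probe set that passed was that of H3C4 (0.56, adjusted p = 0.0323), and those used for H2AC11 and MACROH2A1 missed the threshold in this fit (adjusted p = 0.0518 and 0.0563). This fit has more tests and its own variance prior, and the unadjusted p-values of these 2 probe sets also differed from those of the gene fit. Of 37 genes with more than 1 probe set, 25 had all of them on the same side of 0 and 12 did not. The second probe set of H2AC11 differed by 0.35 and that of H2AC8 by 0.42, while the other 3 of H2BC18 differed by 0.27, 0.27 and 0.04. All 5 probe sets of H2AZ2, all 4 of H2AZ1, all 3 of MACROH2A1 and all 4 of H3-3B were lower on both NeuroD2 arrays than on both controls. Their differences ran from -0.46 to -0.30 for H2AZ2, from -0.20 to -0.13 for H2AZ1, from -0.44 to -0.33 for MACROH2A1 and from -0.33 to -0.08 for H3-3B. Of all genes 26.6% were lower without overlap, and 3412 of the 9066 at or above the median level. Probe sets of 1 gene read the same transcripts and are not separate evidence. In other variants they were less alike: -0.44 and -0.02 for H1-10, 0.15 and -0.07 for H1-7, 0.10 and 0.04 for H1-8, and 0.00 and 0.26 for H2AJ.

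Of the 72 probe sets used, 33 carried the suffix s_at or x_at, which marks probes shared by several transcripts and possibly several genes, among them those of H2BC18, H2AZ2, MACROH2A1 and H1-10. Without such probe sets, 2 of 55 histone genes rose, H2AC11 and H3C4, and 0 fell, where 690 of all 16703 genes passed in either direction. MACROH2A1, whose 3 probe sets all carry these suffixes, is not among the 55. H2AC8 then just missed the threshold (0.40, adjusted p = 0.0503), and H2AZ2, on another probe set, differed by -0.30 (adjusted p = 0.0969). A further 13 probe sets matched several histone genes and belong to none of the 72. Of these, 8 lay above 0 and 5 below, and 1 passed, a probe set shared by H2AC7 and H3C4, at 4.86 and 5.04 against 5.59 and 5.53 (0.61, adjusted p = 0.0392). H2AC18 and H2AC19, identical H2A genes of chromosome 1, shared 2 probe sets that differed by 0.24 and 0.26, neither passing. H4C11 and H4C12 shared 1 that differed by -0.18 (adjusted p = 0.309). H4C14 and H4C15 shared 2, of which 1 differed by 0.26 (adjusted p = 0.18) and the other, at 3.36 to 3.87, by 0.00 (adjusted p = 0.999).

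**Figure D3:**
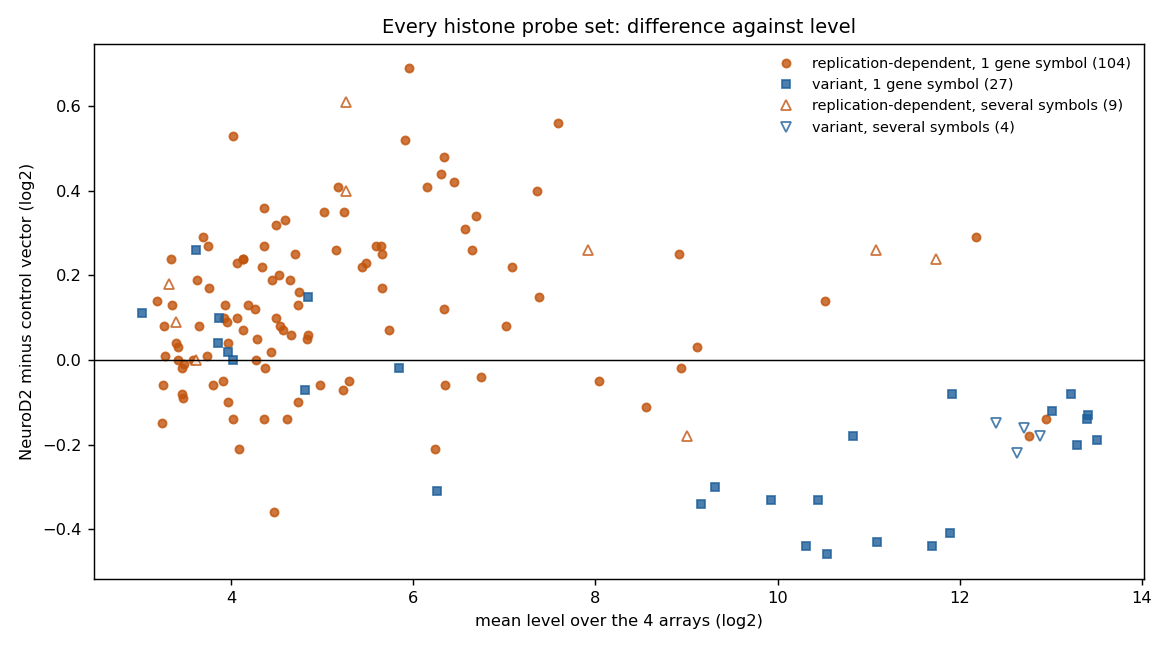
Difference between NeuroD2 and control arrays (log2, y axis) against the mean level over the 4 arrays (log2, x axis) for all 131 histone probe sets with 1 gene symbol and the 13 with several. Variant probe sets above a level of 9 all lie below 0, and most replication-dependent probe sets lie above 0 at lower levels.

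The promoter table held windows for 67 of the 72 histone genes. The octamer, ATTTGCAT on either strand, was present before 11 of 14 H2A genes (78.6%) and 14 of 18 H2B genes (77.8%), where 2.03% of 27305 genes with a window had it. It was present before 1 of 8 H3 genes, H3C4 through the window it shares with H2AC7, before 0 of 6 H1 genes, 0 of 10 H4 genes and 1 of 11 variant genes. CCAAT was present before all 14 H2A, 18 H2B, 8 H3 and 6 H1 genes with a window. It was present before 3 of 10 H4 genes, 9 of 11 variant genes and 37.0% of all genes. TATAAA was present before 71.4% of H2A, 66.7% of H2B, 75.0% of H3 and 60.0% of H4 genes and 13.0% of all genes. The E-box CAGATG, a form that NeuroD factors bind, were present before 21.4% of H2A and 16.7% of H2B genes and 14.6% of all genes. CAGCTG, another E-box, was present before 14.3% of H2A and 22.2% of H2B genes and 16.7% of all genes. All motifs were searched on both strands, and CCAAT and CAGATG can share up to 3 letters with an octamer. The H2A genes with an octamer had a median difference of 0.23 over 11 genes and the 3 without, H2AC13, H2AC15 and H2AC25, one of 0.19. The H2B genes with an octamer had a median of 0.25 over 14 genes and the 4 without, H2BC5, H2BC13, H2BC15 and H2BC26, one of 0.15. The 3 H2A and H2B genes that rose all carry it, as do most genes of these classes that did not pass.

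Divergent transcription joined 11 H2A genes to an H2B gene, with 194 to 248 bases between their starts. Both members lay above 0 in 9 of these 11 pairs and on opposite sides of 0 in 2, H2AC1 with H2BC1 and H2AC20 with H2BC21. Of all 33 H2A and H2B genes 28 lay above 0, so the count of 9 does not show that partners move together. H2AC8 and H2BC8, which share the region printed above, differed by 0.40 and 0.34. The pair of H2AC6 and H2BC4 differed by 0.25 and 0.48, and that of H2AC17 and H2BC17 by 0.23 and 0.27. In other pairs the members lay further apart: H2AC11 differed by 0.69 and H2BC11 by 0.26, where NeuroD2 array 1 of H2BC11, at 6.54, lay between the controls at 6.63 and 6.39. H2AC7 differed by 0.53 and H2BC7 by 0.13, and H3C4, which has a start in the same region, by 0.56. In 0 of the 11 pairs did both members pass. The H2A genes of different pairs have like sequences, as do the H2B genes, so the pairs are not independent of each other.

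**Figure D4:**
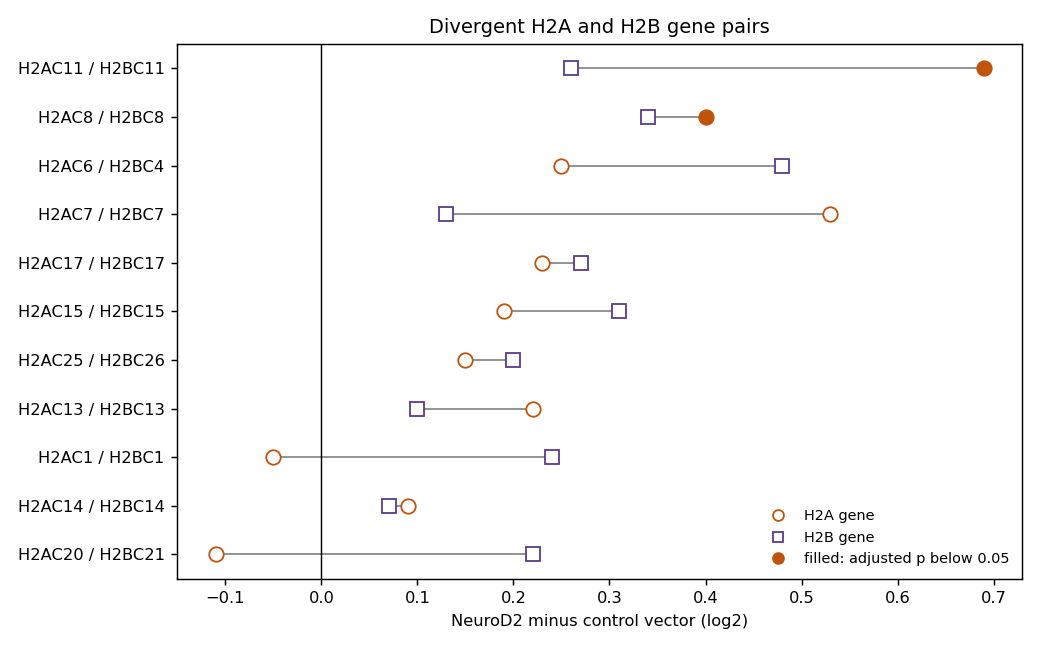
Difference between NeuroD2 and control arrays (log2, x axis) for the H2A gene (circle) and the H2B gene (square) of 11 divergent pairs, joined by a line. In 9 pairs both genes lie above 0, and the filled circles are H2AC11 and H2AC8, which passed the adjusted threshold.

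Histone transcripts need their own activators and a processing machinery at the stem-loop. Of 17 measured genes of histone gene transcription and mRNA processing, 0 rose, 1 fell and 16 did not pass, with a median of -0.07. Over all genes 1.81% rose and 2.96% fell. CDK2, the kinase that with cyclin E activates the histone gene coactivator NPAT, fell from 8.85 and 8.82 to 8.40 and 8.47, a difference of -0.40 (-0.58 to -0.22, adjusted p = 0.0447). The cyclin E gene CCNE2 differed by -0.40 (adjusted p = 0.0823) and NPAT itself, at 7.13 on both control arrays and 6.75 and 6.93 with NeuroD2, by -0.29 (adjusted p = 0.136). CCNE1, the other cyclin E gene, went the other way, at 8.62 and 8.64 against 8.73 and 8.81 (0.14, adjusted p = 0.364). LSM10, a subunit of the U7 particle that cuts histone transcripts, differed by 0.26 (adjusted p = 0.114), and CPSF2, of the cleavage complex, by 0.22 (adjusted p = 0.156). Of the 18 genes of this list POU2F1, which encodes Oct-1, was not analysed here.

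Histone chaperones carry newly made histones to DNA. Of 25 chaperone and deposition genes, 0 rose, 2 fell and 23 did not pass. They had a median of -0.14, and in 17 both NeuroD2 arrays lay below both controls. Over all genes 2.96% fell and 26.6% were lower without overlap. Of the 25 genes, 23 lay at or above the median level of all genes. In that range 424 of all 9066 genes fell and 3412 were lower without overlap. ASF1B, which hands H3 and H4 to the replication fork, fell from 9.52 and 9.44 to 9.05 and 9.02, a difference of -0.45 (adjusted p = 0.0364). RBBP4, a subunit of chromatin assembly factor 1, fell from 11.03 and 10.99 to 10.65 and 10.55, a difference of -0.42 (adjusted p = 0.0445). In both genes the fall exceeded the spread within each group. CENPA, the centromeric H3, differed by -0.41 (adjusted p = 0.136), which was -0.59 without control array 1 and -0.23 without control array 2. Its chaperone gene HJURP differed by -0.33 (adjusted p = 0.0716). CHAF1A, the large subunit of chromatin assembly factor 1, differed by -0.36 (adjusted p = 0.0528), and MCM2, a helicase subunit that also binds histones, by -0.29 (adjusted p = 0.131).

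Of 25 measured S-phase genes, 0 rose, 3 fell and 22 did not pass. They had a median of -0.29, and 24 of the 25 lay below 0 with no overlap between the groups. Over all genes 2.96% fell and 26.6% were lower without overlap. All 25 lay at or above the median level of all genes. Among all 9066 genes of that range 424 fell, 3412 were lower without overlap and the median was -0.03. RFC3, a subunit of the clamp loader, fell from 9.98 and 10.02 to 9.50 and 9.53 (-0.49, adjusted p = 0.0269). GINS1, of the replicative helicase, fell from 9.03 and 9.01 to 8.46 and 8.62 (-0.49, adjusted p = 0.0397). PCNA, the sliding clamp, fell from 11.90 and 11.95 to 11.48 and 11.52 (-0.43, adjusted p = 0.0381). Further differences were -0.41 for TK1, -0.40 for MCM4, -0.39 for POLA1 and -0.37 for MCM3, with adjusted p-values from 0.0513 to 0.0769. RFC5 was the gene above 0 (0.27, adjusted p = 0.307). So on these arrays 24 of the 25 S-phase genes lay below 0 while 46 of 61 replication-dependent histone genes lay above 0. That contrast is by sign and not by a test of the difference, and the 2 sets differ in level. Only 15 of the 61 lay at or above the median level, and 12 of these 15 lay above 0. Of all genes, 3952 of 9066 in that range and 5116 of 9066 below it lay above 0. Like the histone calls, those in the 3 lists were lost when any 1 array was left out. The S-phase count was 18 when limma's variance prior followed intensity. Calls over all genes also grew under that prior, to 2056 of 18132 from 328 higher and 536 lower.

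**Figure D5:**
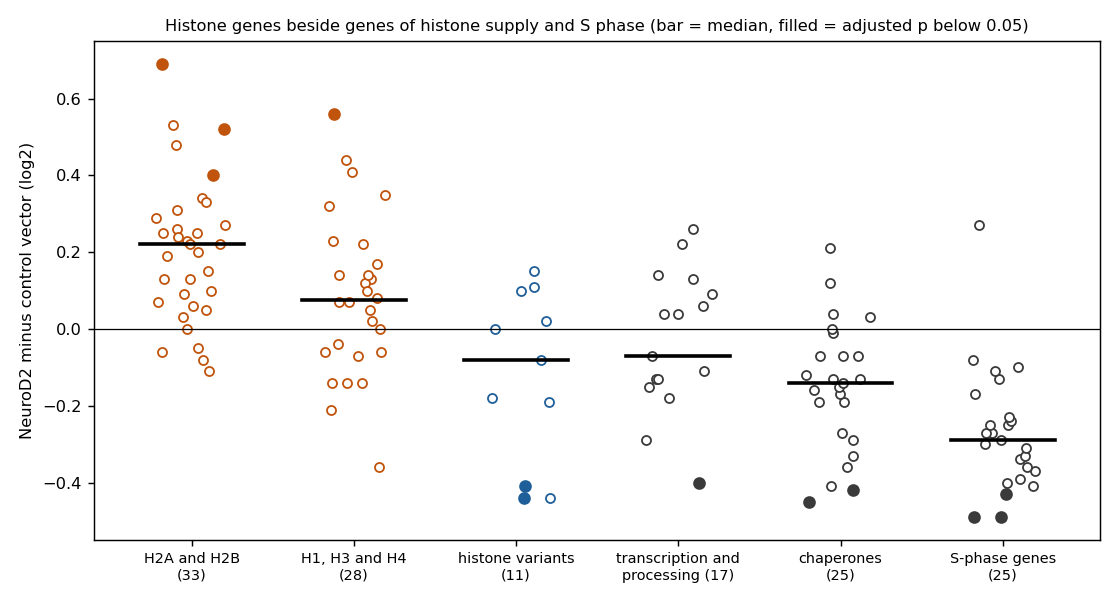
Difference between NeuroD2 and control arrays (log2, y axis) for each gene of 3 histone groups and of 3 related gene lists, with the number of genes under each name, bars for medians and filled circles for genes past the adjusted threshold. The medians run from 0.22 for H2A and H2B genes to -0.29 for S-phase genes.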

How the data were processed

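RNA was labelled with the GeneChip 3' IVT Express kit, per the labels' protocols, and read on 4 Affymetrix PrimeView arrays. The authors deposited 1 value per probe set and array for 49395 probe sets, taken here as log2 intensities summarised over probes and normalized between arrays before deposit. That reading rests on their range, 2.65 to 14.3, and array medians of 5.98 to 5.99. The software behind background correction and normalization is not given in the sources used here.

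Probe sets were named through the platform annotation: 44994 had 1 symbol, 1832 several and 2569 none. Entrez identifiers matched 44967 probe sets to the RefSeq gene table, and 0 symbols changed. A gene was read on its single-symbol probe set with the highest mean. Groups were compared with limma 3.58.1 (R 4.3.3; lmFit and eBayes, no trend, two-sided) over 18132 genes, on 2 residual and 3.84 prior degrees of freedom, with Benjamini-Hochberg adjustment over all genes and a threshold of 0.05. The script was tested on simulated data. With 2 arrays a group the smallest exact permutation p is 0.333, so none was computed. Promoter windows are RefSeq sequences of GRCh38.p14. No detection calls or scan dates were used, the number of arrays limits the precision, and no gene was filtered on level.

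The members, lists and tests were chosen with earlier results of these data known. Named genes are the histone genes past the threshold, the 4 largest differences of each class, every variant, and, of each list, the members past the threshold and up to 4 more; other genes were named after their values were seen. Alternatives were omitting each array, a replicate block, a robust or an intensity-dependent prior, quantile normalization, median centring of arrays, dropping dim genes, averaging probe sets, and dropping s_at and x_at probe sets.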

Additional observations from a re-analysis of the deposited data

How the results depend on the processing

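Leaving out any 1 array left 0 histone genes called higher, 0 called lower, and 0 called lower in each of the transcription and processing, chaperone and S-phase lists, with fewer samples in each fit. In these omissions the difference of H2AJ ran from -0.17 to 0.17, of H3-3A from -0.01 to 0.23 and of MACROH2A2 from -0.13 to 0.16, each changing sign, and that of H1-8 from 0.00 to 0.20. The labels do not say whether the replicate numbers pair the arrays, and the deviations of same-numbered arrays correlated at r = 0.0823 over genes, with 2 pairs, so they were not treated as paired. With the replicate number as a block, 1 histone gene was called higher, H3C4 (adjusted p = 0.0491), 0 lower, and 0 in each of the 3 lists. Calls over all genes fell as well with this block, to 335 of 18132. With an intensity trend 8 histone genes were called higher and 4 lower. In the lists, 2 transcription and processing genes were called higher and 2 lower, 6 chaperone genes lower and 18 S-phase genes lower. Calls over all genes also grew, to 2056 of 18132 from 328 higher and 536 lower in the main fit. With dim genes dropped (below the median level) the median was 0.22 for replication-dependent and -0.30 for variant histone genes. In the lists, 2 transcription and processing genes were called higher and 3 lower, 6 chaperone genes lower and 17 S-phase genes lower. Fewer genes were tested in that fit, 9066, and 2080 of them were called. With the mean of probe sets 4 chaperone and 8 S-phase genes were called lower, and with centred arrays 5 S-phase genes. Over all 18132 genes these 2 settings gave 1187 and 927 calls. Without s_at and x_at probe sets 2 histone genes were called higher and 0 lower, 1 chaperone gene higher and 1 lower, and H4C5 differed by -0.02. That setting tested 16703 genes and called 690 of them. With quantile normalization H2AJ differed by -0.02 and MACROH2A2 by -0.01. Of 342 values of 31 named histone genes under these alternatives, 287 kept their direction and side of the threshold, 34 lost the call, 12 gained it and 9 changed sign (1 of them, H1-8, at 0.00). The causes of these changes were not tested except where given. For H1-10 the value ran from -0.55 to -0.02, and adjusted p-values of the 6 called histone genes reached 0.334 at most. Signal over background was not assessed, which limits what can be said of the dim genes.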
